A study of Mus musculus with 16 samples.

Results

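Tumours from the arm that joined exercise with an anti-PD-L1 antibody (the combination) were set against control tumours, gene by gene, in a mouse model of colon cancer. MC38 is a colon adenocarcinoma line from C57BL/6 mice, and the labels describe tumours of these cells grown under the skin. The 8 libraries compared are the 4 combination libraries and the 4 control libraries, out of 16 in the series, and both groups were chosen by title alone. The other arms are 4 libraries of anti-PD-L1 alone and 4 of exercise alone. The labels name no genetic change, and all arms share the MC38 graft. The labels give neither the kind and length of exercise, nor the antibody's clone and dose, nor the injection controls received, nor age and time of collection. PD-1 blockade is the wording of the series title, whereas the library titles say anti-PD-L1. The labels leave out whether each library is a different mouse, so p-values measure the spread between libraries, which may be technical in part.

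PD-L1 (gene Cd274) is a surface protein on tumour and myeloid cells that binds PD-1 on T cells and restrains them, and antibodies to PD-L1 block that contact. Activated CD8 T cells and natural killer cells release interferon gamma together with perforin and granzymes. Interferon gamma raises the genes by which a cell cuts proteins into peptides, moves the peptides into the endoplasmic reticulum and shows them on MHC molecules. Much of that machinery lies in the MHC, a gene-dense stretch of chromosome 17 in the mouse.

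Gene levels were deposited as FPKM, a level scaled to transcript length and to the library's mapped fragments. Over the 8 libraries the FPKM summed to 487269 to 525928, and 11293 to 11873 of 18480 entries reached 1 FPKM. Read depth is unknown from these values. On log2(FPKM + 1) values of tested genes, control libraries 1 and 2 lay at 1 end of the leading principal component, to which 30.1% of the variance among all 16 libraries belonged. Control library 2 also held skeletal muscle transcripts, with a sum of 450.21 FPKM over 16 muscle genes, against 3.49 to 13.74 in the combination libraries and 4.98 to 17.07 in the other control libraries. Fold changes, list medians and counts that lean on these 2 libraries are also given without them. Of the epithelial markers, Krt8, Krt18 and Epcam were at 0 to 0.2 FPKM in every combination and control library, so these markers were at or near 0, while Cdh1, the epithelial cadherin, was at 1.39 to 3.05 FPKM in the combination and 1.28 to 2.77 FPKM in controls. Krt19, a keratin of simple epithelia, measured 0.17, 0.22, 0.45 and 0.04 FPKM in the combination, against 3.54, 4.87, 0.52 and 0.07 FPKM in controls, a log2 fold change of -1.08 ± 0.41 (SE; limma unadjusted p = 0.0177, adjusted p = 0.6), or -0.07 without control libraries 1 and 2. The tissue is bulk tumour, in which fewer cells of a type and less RNA per cell cannot be told apart.

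Antigen presentation transcripts led the genes that were higher in combination tumours, and Thbs2, a matrix glycoprotein, led the lower ones, but no single gene passed correction for all genes tested. With limma on log2(FPKM + 1), 0 of 11868 genes reached a Benjamini-Hochberg adjusted p under 0.05 (0%), and the lowest adjusted p was 0.245, shared by Psmb9, H2-T10 and H2-T22. At an unadjusted p under 0.05 there were 973 genes, of which 357 were higher in the combination (3.01%) and 616 lower (5.19%). That count depended on single libraries. It was 518 without control library 1, 486 without control library 2, 1593 without control library 4 and 616 without combination library 1, and 291 without control libraries 1 and 2 together. The split by direction depended on scaling, with 463 higher and 438 lower after quantile normalization and 482 higher and 466 lower after centring each library on its median. In 173 genes every combination library lay above every control library (1.46%), and in 281 every combination library lay below every control library (2.37%). The median log2 fold change over all tested genes was -0.03, with quartiles of -0.14 and 0.07. In all, 51 genes were higher by 1 or more on this scale and 85 lower by 1 or more.

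**Figure D1:**
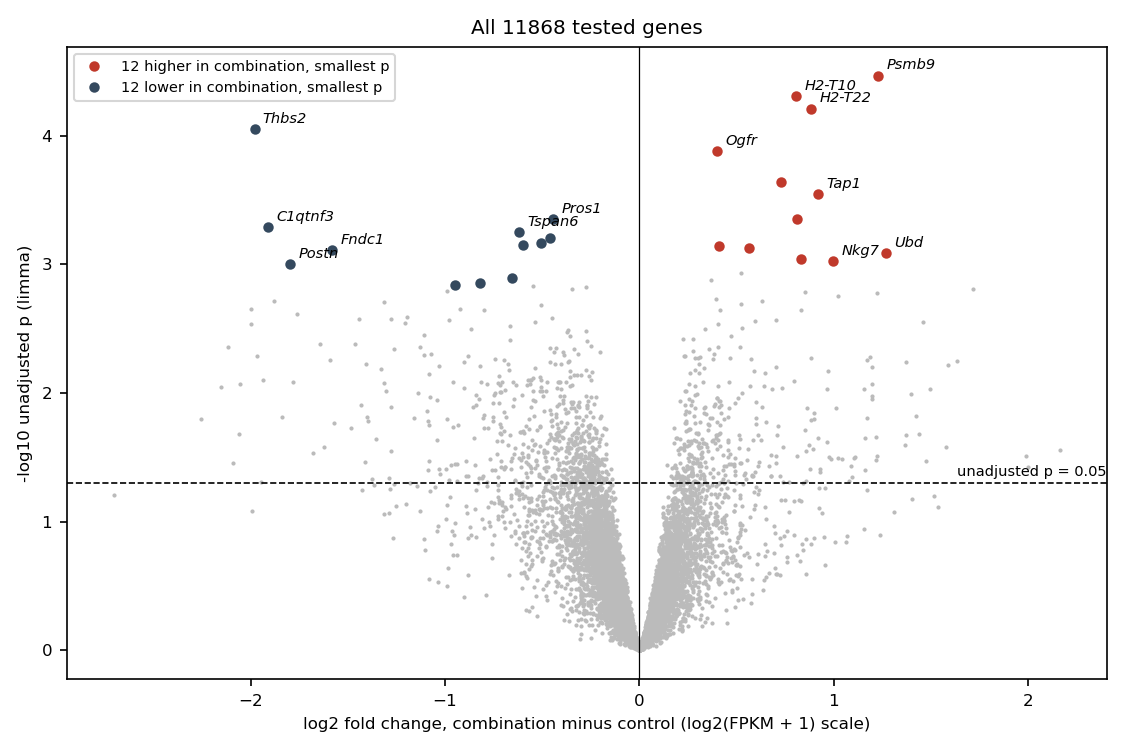
Log2 fold change of each tested gene in combination minus control tumours on the log2(FPKM + 1) scale, against -log10 of the unadjusted limma p. Red points are the 12 higher genes with the smallest p and dark points the 12 lower ones, and the dashed line marks an unadjusted p of 0.05. No point passed an adjusted p of 0.05.

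The regulatory DNA beside the leading genes is shown first, because Psmb9 and Tap1, which rank high among the higher genes, share a single promoter region and because the interferon-inducible families carry recognisable elements. Psmb9 (minus strand) and Tap1 (plus strand) start back to back on chromosome 17, with 225 bases between their RefSeq starts (GRCm38.p6). That stretch, chr17:34187331-34187555, is printed in the direction of Tap1, with its GC box (GGGCGG, on either strand) in capitals.

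Psmb9-Tap1 intergenic: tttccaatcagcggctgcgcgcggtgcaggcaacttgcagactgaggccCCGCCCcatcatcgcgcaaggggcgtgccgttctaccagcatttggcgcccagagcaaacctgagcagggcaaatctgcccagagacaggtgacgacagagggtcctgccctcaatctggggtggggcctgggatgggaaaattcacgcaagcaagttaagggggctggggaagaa

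A GC box is common. It was present in 35.7% of all 32851 RefSeq promoter windows, which run from 250 bases before to 50 bases after a start. Among tested genes with a window the share was 69.0%. Elements of interferon-inducible genes were searched on both strands, the core of the interferon-stimulated response element (GAAANNGAAA, where N is any base) and the gamma-activated site (TTCNNNGAA), with no allowance for mismatches. The stretch between Psmb9 and Tap1 holds neither of them. The next stretches do, and were picked as examples that hold an element. H2-T22 has one of the 3 smallest p values, and Gbp2, Gbp7 and Igtp belong to families with list medians above 1. Other genes that fit these descriptions are not shown. The H2-T22 stretch covers positions -250 to -131 from its start, to take in its element, and the others cover -120 to -1. Capitals mark either element. H2-T22 is on the minus strand at chr17:36042873-36042992, Gbp2 on the plus strand at chr3:142620543-142620662, Gbp7 on the plus strand at chr3:142530216-142530335 and Igtp on the plus strand at chr11:58199436-58199555.

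H2-T22 upstream: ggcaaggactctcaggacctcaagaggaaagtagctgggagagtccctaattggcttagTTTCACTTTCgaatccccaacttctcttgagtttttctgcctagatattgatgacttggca
Gbp2 upstream: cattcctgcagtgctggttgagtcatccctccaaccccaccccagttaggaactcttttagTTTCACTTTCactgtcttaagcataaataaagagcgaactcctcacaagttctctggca
Gbp7 upstream: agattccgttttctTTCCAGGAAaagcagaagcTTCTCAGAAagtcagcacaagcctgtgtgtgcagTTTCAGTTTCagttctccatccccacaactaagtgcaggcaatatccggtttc
Igtp upstream: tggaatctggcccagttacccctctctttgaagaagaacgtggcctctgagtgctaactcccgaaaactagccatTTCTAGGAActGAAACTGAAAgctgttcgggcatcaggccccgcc

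In H2-T22 the response element lies 191 bases before the start and in Gbp2 59 bases before it, while Gbp7 has 1 response element and 2 gamma-activated sites and Igtp has 1 of each. The response element core was present in 3.44% of all windows and in 3.93% of the 9337 tested genes that have a window. It was in all 4 of the guanylate-binding proteins with a window, in 6 of 7 immunity-related GTPases, in 11 of 18 type I interferon effectors and in 3 of 9 MHC class I genes. Of the fibrillar collagen and matrix list, 0 of 11 genes with a window held it. It was in 2 of 11 immunoproteasome and peptide loading genes, in 2 of the 10 genes with a window among the 12 higher genes with the smallest p, and in 3 of 18 ribosomal protein genes. The gamma-activated site was in 8.3% of all windows, in 5 of 7 immunity-related GTPases, in 2 of 4 guanylate-binding proteins and in 6 of 18 type I interferon effectors. It was in 1 of 11 immunoproteasome and peptide loading genes and in 1 of 9 class I genes, close to the 8.34% of tested genes with a window. These matches describe letters and not bound sites.

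The 12 higher genes with the smallest p were Psmb9, H2-T10, H2-T22, Ogfr, H2-DMb1, Tap1, Tap2, Ulk3, Tapbp, Ubd, Psmb8 and Nkg7. In all 12 the libraries of the 2 groups did not overlap, against 1.46% of all genes. Choosing genes by small p favours such separation, so it adds no support. The adjusted p of the 12 genes ran up to 0.559. Of these genes, 9 lie on chromosome 17, all between Tapbp and Ubd at chr17:33919478-37196101. That interval was marked out after the values were seen. It holds 108 tested genes, and its median log2 fold change was 0.05. At an unadjusted p under 0.05, 17 were higher and 2 lower, against 3.01% and 5.19% of all genes. Among its 80 genes outside every list used here the median was 0.03 and 5 were higher at that threshold.

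Psmb9 encodes beta1i, a catalytic subunit that replaces its constitutive counterpart in the immunoproteasome. It measured 52.05, 46, 32.71 and 47.36 FPKM in the combination libraries, against 26.55, 14.05, 16.06 and 18.07 FPKM in the control libraries. The lowest combination library was above the highest control library. The log2 fold change was 1.23 with a standard error of 0.21 (limma, unadjusted p = 3.43e-05, adjusted p = 0.245). Psmb8, the beta5i subunit, measured 82.77, 53.94, 47.59 and 71.11 FPKM in the combination, against 43.71, 27.64, 32.21 and 36.83 FPKM in controls. Psmb10, the third inducible subunit, measured 32.04 to 49.76 FPKM in the combination, against 22.97 to 29.48 FPKM in controls. In none of the 3 did the groups overlap. The constitutive subunits that these replace overlapped between the groups. Psmb6 was at 89.79 to 100.07 FPKM in the combination and 85.63 to 98.37 FPKM in controls, and Psmb5 at 61.03 to 68.91 FPKM and Psmb7 at 77.06 to 86.24 FPKM in the combination lay beside control values of 62.62 to 70.35 and 77.6 to 91.97 FPKM.

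Tap1 and Tap2 form the channel through which cytosolic peptides enter the endoplasmic reticulum. Tap1 measured 51.43, 46.91, 36.28 and 44.14 FPKM in the combination, against 31.65, 17.09, 20.87 and 24.64 FPKM in controls, a log2 fold change of 0.92 ± 0.20 (SE; limma adjusted p = 0.482). Tap2 measured 37.61, 27.64, 28 and 33.38 FPKM in the combination, against 19.28, 11.95, 20.29 and 19.82 FPKM in controls. Tapbp, the tapasin that holds class I molecules at the transporter, averaged 82.6 ± 7.96 FPKM in the combination and 55.5 ± 5.26 FPKM in controls (SD, n = 4 each). The activator subunits Psme1 and Psme2 also did not overlap, with Psme1 at 98.74 to 141.48 FPKM in the combination and 85.92 to 87.45 FPKM in controls. Ubd, the ubiquitin-like modifier FAT10, measured 11.49, 6.14, 10.02 and 8.41 FPKM in the combination, against 4.36, 1.37, 3.44 and 3.88 FPKM in controls. Over the list of immunoproteasome and peptide loading genes, 9 of 14 tested members were higher at an unadjusted p under 0.05, against 3.01% of all genes. In 8 the groups did not overlap, against 1.46% of all genes. The list's median log2 fold change was 0.42, against -0.03 over all genes, and 0.37 without control libraries 1 and 2. Leaving out each of the 8 libraries in turn left 7 to 9 members at that threshold. By contrast, 0 of 20 constitutive proteasome subunits were past it, and their median was -0.06, or 0.01 without control libraries 1 and 2.

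**Figure D2:**
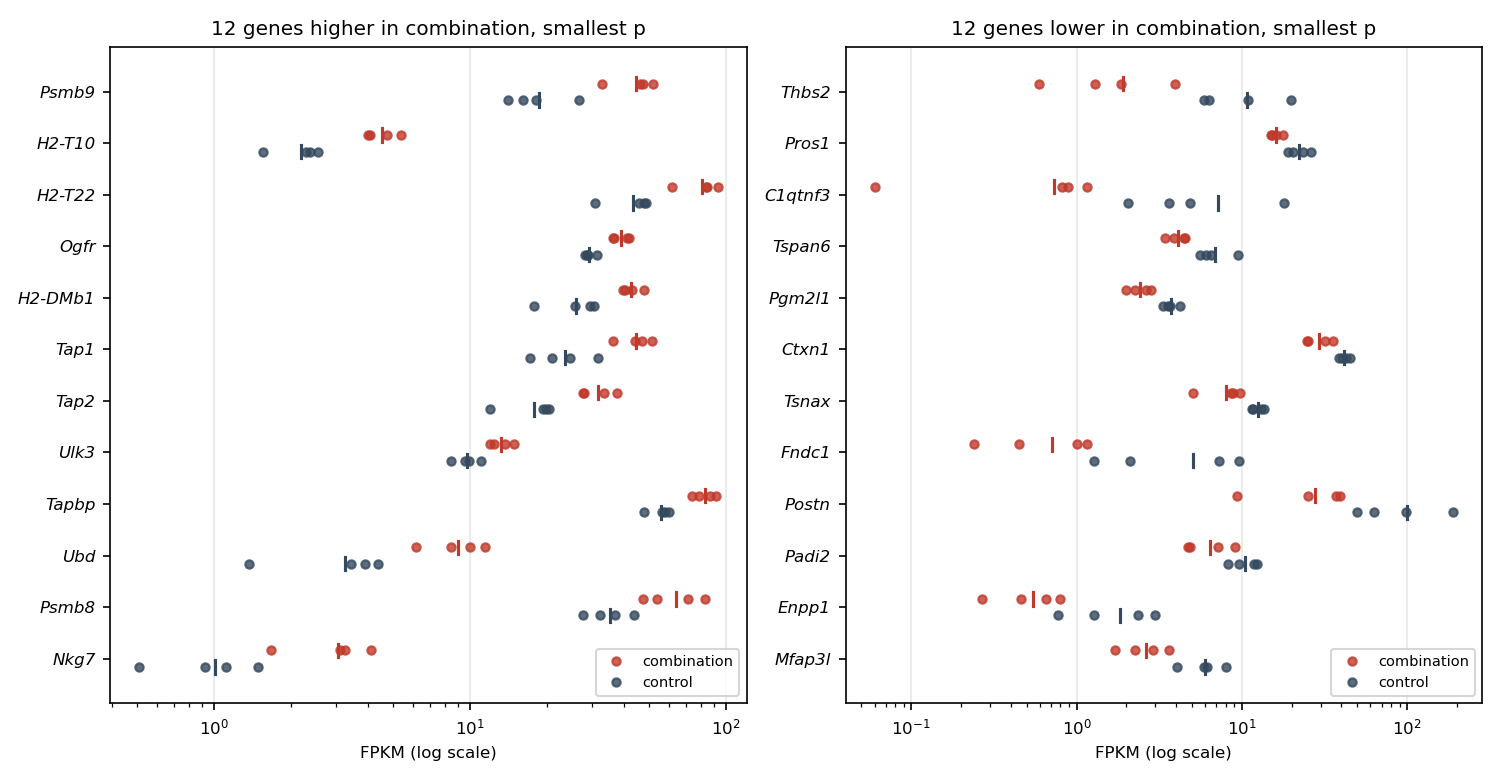
FPKM on a log axis of the 12 higher genes (left) and 12 lower genes (right) with the smallest p in combination against control tumours. Each point is a library and each vertical tick a group mean. All 12 higher genes and 10 of the 12 lower genes show no overlap between the groups, which choosing genes by small p favours.

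The MHC class I genes encode the molecules that carry peptides to CD8 T cells. H2-K1, a classical heavy chain, measured 962.75, 1384.53, 1099.43 and 1088.16 FPKM in the combination, against 902.58, 556.73, 717.08 and 768.42 FPKM in controls. H2-D1, the other classical chain of C57BL/6 mice, measured 1101.07, 1340.45, 1024.6 and 1096.4 FPKM in the combination, against 960.13, 672.66, 773.86 and 781.3 FPKM in controls. For both, each combination library was above each control library, and the log2 fold changes were 0.63 ± 0.17 and 0.52 ± 0.14 (SE). The nonclassical gene H2-T22, whose product is a ligand of some gamma delta T cells, measured 83.28, 92.84, 61.75 and 83.96 FPKM in the combination, against 48.01, 30.79, 45.74 and 48.84 FPKM in controls, a log2 fold change of 0.88 ± 0.16. H2-T10, which RefSeq lists as a transcribed pseudogene, averaged 4.55 ± 0.65 FPKM in the combination and 2.19 ± 0.43 FPKM in controls (SD, n = 4 each). H2-Q4 averaged 121 FPKM in the combination and 83.7 FPKM in controls. These genes are related copies, some of them close, so reads can be assigned to the wrong member.

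The light chain B2m was among the most abundant of these transcripts and separated less. It measured 1561.96, 1381.67, 1279.1 and 1432.37 FPKM in the combination, against 1340.57, 889.98, 1179.38 and 1226.99 FPKM in controls, a log2 fold change of 0.30 ± 0.18 with overlap between groups. H2-Q7 was the only tested class I member with a negative value, at 2.36 to 3.55 FPKM in the combination against 9.45, 9.32, 2.78 and 1.55 FPKM in controls, and its log2 fold change of -0.57 became 0.30 without control libraries 1 and 2. The median was 0.52, and 5 of 11 tested class I genes did not overlap, against 1.46% of all genes. Altogether 6 of the 11 were higher at an unadjusted p under 0.05, against 3.01% of all genes. Leaving out single libraries gave 5 or 6 such genes, and 8 without control libraries 1 and 2.

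MHC class II molecules present peptides to CD4 T cells and are made mainly by professional antigen-presenting cells. H2-DMb1, a chain of the peptide editor H2-DM, measured 42.95, 40.26, 39.63 and 47.97 FPKM in the combination, against 25.78, 29.37, 17.79 and 30.49 FPKM in controls. Its groups did not overlap (log2 fold change 0.73 ± 0.15 SE, limma adjusted p = 0.454). The class II chains themselves behaved otherwise. Cd74, the invariant chain, measured 180.18, 118.6, 460.82 and 566.18 FPKM in the combination, against 217.75, 346.33, 76.83 and 116.17 FPKM in controls. H2-Aa measured 74.97, 43.51, 157.91 and 217.06 FPKM in the combination, against 73.03, 130.48, 25.76 and 42.78 FPKM in controls. In both genes, combination libraries 3 and 4 were the highest of the 8 and combination libraries 1 and 2 lay within the control range. H2-DMb2 went against the list's median, with a log2 fold change of -0.25, which was 0.16 without control library 2 and 0.65 without control libraries 1 and 2. Of 10 tested class II genes 1 was higher at an unadjusted p under 0.05, against 3.01% of all genes, and the median was 0.63. The count was 1 to 5 when single libraries were left out (4 without control library 2, 2 without combination library 1 and 5 without combination library 2), and 7 without control libraries 1 and 2, with a median of 0.87.

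Around Psmb9 itself, 22 tested genes had a place within 250 kb of it. Of these, 11 belonged to the antigen presentation lists, where the median log2 fold change was 0.81. At an unadjusted p under 0.05, 6 of the 11 were higher, against 3.01% of all genes. The 11 others had a median of 0.06, and 3 were past that threshold, namely Rps18, a ribosomal protein, Ring1, a Polycomb protein, and H2-Ke6, an enzyme of steroid and fatty acid metabolism. Brd2, a bromodomain protein whose gene adjoins the class II gene H2-DMa, had a log2 fold change of 0.05. This window was also chosen after the values were seen.

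**Figure D3:**
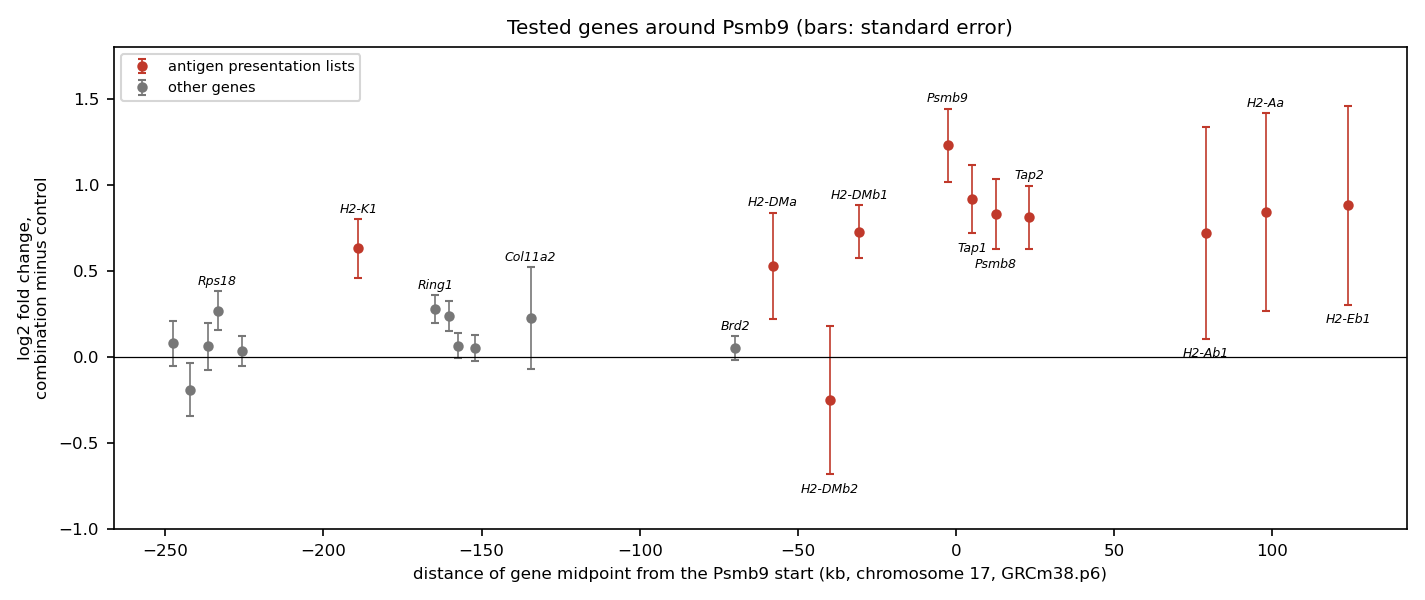
Log2 fold change (combination minus control, bars give the standard error) of the 22 tested genes around Psmb9, against the distance in kb of each gene's midpoint from the Psmb9 start. Red points are the 11 antigen presentation genes, with a median of 0.81, and grey points the 11 others, with a median of 0.06.

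The guanylate-binding proteins and immunity-related GTPases are 2 families of large GTPases that interferon gamma induces and that act against pathogens inside cells. Gbp2 measured 114.42, 64.69, 44.93 and 133.54 FPKM in the combination, against 35.07, 14.11, 23.72 and 29.01 FPKM in controls. The groups did not overlap, and the log2 fold change was 1.71 ± 0.44 (SE; limma adjusted p = 0.572). All 9 tested guanylate-binding proteins were higher at an unadjusted p under 0.05, against 3.01% of all genes. Their log2 fold changes were 0.88 to 1.71, with a median of 1.20, and 5 did not overlap, against 1.46% of all genes. Combination library 3 was the lowest of its group for Gbp2 and also for Gbp5, at 2.99 FPKM, Gbp4, at 4.71 FPKM, Gbp3, at 12.52 FPKM, and Gbp7, at 9.28 FPKM. The count of 9 was 5 without combination library 4 and 6 without combination library 1, and 4 without control libraries 1 and 2. Gbp6 is a near copy of other members of its cluster, so its value of 6.56 to 25.46 FPKM in the combination, against 1.73 to 5.36 FPKM in controls, may include their reads.

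Igtp, a regulatory GTPase of the second family, measured 73.7, 22.37, 15.53 and 43.49 FPKM in the combination, against 15.08, 5.42, 13.57 and 14.82 FPKM in controls. Tgtp2 measured 49.25, 19.69, 13.18 and 34.55 FPKM in the combination, against 12.63, 3.69, 12.69 and 12.62 FPKM in controls. In each the lowest combination library, number 3, was only just above the highest control library. Iigp1, an effector of the family, overlapped, at 10.22 to 73.75 FPKM in the combination against 5.68 to 17.67 FPKM in controls. All 9 tested members had positive log2 fold changes, with a median of 1.22, and 3 did not overlap, against 1.46% of all genes. At an unadjusted p under 0.05, 6 were higher, these 3 among them, against 3.01% of all genes. That count was 0 without combination library 1, 0 without combination library 4, 1 without control library 2 and 9 without combination library 3, and 0 without control libraries 1 and 2, when the median was 0.99.

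Among the factors that relay interferon signals, Irf1 measured 64.64, 37.98, 45.64 and 74.59 FPKM in the combination, against 39.14, 26.57, 31.09 and 35.4 FPKM in controls, with combination library 2 inside the control range. Batf2 was at 4.43 to 13.93 FPKM in the combination and 2.43 to 5.45 FPKM in controls, and Irf9 at 13.49 to 26.75 FPKM in the combination and 11.42 to 15 FPKM in controls. Of 18 tested receptors, kinases, STAT and IRF factors, 4 were higher at an unadjusted p under 0.05, against 3.01% of all genes. The median of that list was 0.15, and 0.32 without control libraries 1 and 2. Its count was 1 without any one of control library 2, combination library 1 or combination library 4, and 2 without control libraries 1 and 2.

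Type I interferon effectors, antiviral proteins also induced by interferons alpha and beta, were more scattered. Ifi27 did not overlap, at 29.35 to 35.84 FPKM in the combination against 19.88 to 28.82 FPKM in controls. Ifit3, which binds viral RNA complexes, measured 65.28, 20.97, 12.74 and 22.76 FPKM in the combination, against 3.53, 6.41, 24.4 and 16.95 FPKM in controls, so that combination library 1 stood high and the rest overlapped. Of 24 tested effectors 23 had a positive log2 fold change, with a median of 0.59. But at an unadjusted p under 0.05 only 3 were higher (Ifi27, Xaf1 and Bst2), or 12.5%, against 3.01% of all genes. Without control libraries 1 and 2 the median was 0.30 and the count 0, and leaving out single libraries gave 1 to 5. It was 1 without control library 1, control library 2 or combination library 1, and 5 without control library 3 or combination library 3. It was 2 without control library 4 or combination library 4.

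Chemokines that draw T cells to tissue were compared next. Ccl5, a T-cell attractant, measured 9.4, 9.88, 12.83 and 10.42 FPKM in the combination, against 6.29, 5.04, 4.98 and 5.79 FPKM in controls. Its groups did not overlap, and combination library 3, the lowest of its group for Gbp2 and Igtp, was the highest (log2 fold change 0.83 ± 0.23 SE, limma adjusted p = 0.572). Cxcl10, a CXCR3 ligand, measured 99.79, 38.25, 37.35 and 67.37 FPKM in the combination, against 18.45, 12.41, 26.5 and 23.21 FPKM in controls. Cxcl9, another CXCR3 ligand, measured 21.55, 9.12, 10.75 and 38.35 FPKM in the combination, against 20.95, 4.99, 3.19 and 6.52 FPKM in controls, where control library 1 was within the combination range. The target Cd274 measured 10.1, 5.86, 4.64 and 6.95 FPKM in the combination, against 5.83, 5.17, 3.47 and 4.5 FPKM in controls. These groups overlapped, with a log2 fold change of 0.43 ± 0.30 (SE; limma adjusted p = 0.713). Among 11 tested checkpoint ligands and receptors 1 was past an unadjusted p of 0.05, Tnfrsf14, at 6.89 to 8.91 FPKM in the combination and 4.33 to 6.41 FPKM in controls, against 3.01% of all genes, a count of 1 that shows nothing about the list. It was not past the threshold without control library 2, combination library 4, or control libraries 1 and 2 together.

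Cytotoxic lymphocyte genes had a list median of 1.34 and divided the combination group. Gzmb, the granzyme that cleaves caspases in target cells, measured 13.34, 11.07, 2.84 and 10.08 FPKM in the combination, against 2.11, 1.21, 4.14 and 2.66 FPKM in controls (log2 fold change 1.46 ± 0.41 SE, limma adjusted p = 0.572). Prf1, the pore-forming protein perforin, measured 7.4, 8.61, 1.24 and 4.4 FPKM in the combination, against 1.2, 0.41, 3.05 and 1.67 FPKM in controls. In both genes combination libraries 1, 2 and 4 were above all controls and combination library 3 lay among them. Nkg7, a protein of cytotoxic granules, was the exception, since all its combination values of 3.26, 3.12, 1.67 and 4.11 FPKM were above the control values of 1.48, 0.51, 0.92 and 1.11 FPKM.

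Summed over 20 cytotoxic markers, the combination libraries held 369.85, 384.11, 32.24 and 232.64 FPKM, against 37.69, 15.12, 109.32 and 86.92 FPKM in controls. In combination libraries 1, 2 and 4 most of that sum came from the clustered granzymes Gzmc, Gzmd, Gzmf and Gzmg, near copies of one another whose reads may be shared. Of 12 tested members 8 were higher at an unadjusted p under 0.05, against 3.01% of all genes. Leaving out combination library 3 gave a median of 1.77. Leaving out control libraries 1 and 2 gave one of 0.76. The count was 2 without control libraries 1 and 2, 3 without control library 2, 5 without control library 1, 3 without combination library 1, 4 without combination library 2 and 4 without combination library 4.

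T-cell genes were near the limit of these libraries, and most were not tested because few libraries reached 1 FPKM. Cd8a, a chain of the CD8 coreceptor, measured 1.06, 0.87, 0.77 and 1.31 FPKM in the combination, against 0.7, 0.21, 0.12 and 0.62 FPKM in controls. Ifng, the gene of interferon gamma, measured 0.5, 0.25, 0.21 and 0.39 FPKM in the combination, against 0.13, 0.04, 0.04 and 0 FPKM in controls. In both, each combination library was above each control library, at levels too low for a test here. Cd3g, a chain of the T-cell receptor complex, was tested and did not overlap, at 0.95 to 1.79 FPKM in the combination and 0.21 to 0.86 FPKM in controls. Cd3e, another chain of that complex, was not tested and overlapped, at 0.14, 0.21, 0.46 and 0.65 FPKM in the combination against 0.6, 0.07, 0.11 and 0.14 FPKM in controls. Thy1, a surface protein of T cells and also of some fibroblasts, measured 20.91, 7.83, 9.8 and 16.1 FPKM in the combination, against 43.63, 61.63, 14.25 and 11.58 FPKM in controls. Its log2 fold change was -0.98 ± 0.45 (SE; limma unadjusted p = 0.0474, adjusted p = 0.607), or -0.01 without control libraries 1 and 2. Of the 4 T-cell genes tested, Cd3g was thus higher and Thy1 lower at an unadjusted p under 0.05, and the list's median was 0.19. Against 3.01% and 5.19% of all genes, counts of 1 show nothing about the list. The count higher was 0 without control library 2 or 3 or combination library 1, 3 or 4. The count lower was 0 without control library 1 or 2 or combination library 2 or 3. Both were 0 without control libraries 1 and 2 together. Cd4 was at 0.18 to 0.93 FPKM in the combination and 0.23 to 1.04 FPKM in controls, Foxp3, the factor of regulatory T cells, at 0.07 to 0.24 FPKM and 0.11 to 0.21 FPKM, and Pdcd1, the gene of PD-1, at 0.16 to 0.49 FPKM and 0.1 to 0.36 FPKM. For these 3 genes the groups overlapped. Ncr1, a natural killer cell receptor, was at 0.03 to 0.39 FPKM in the combination and 0.03 to 0.21 FPKM in controls.

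The 12 lower genes with the smallest p were Thbs2, Pros1, C1qtnf3, Tspan6, Pgm2l1, Ctxn1, Tsnax, Fndc1, Postn, Padi2, Enpp1 and Mfap3l. In 10 of them the groups did not overlap, against 2.37% of all genes, a separation that choosing genes by small p favours. Thbs2, a matrix glycoprotein known to restrain the growth of blood vessels, measured 3.94, 0.59, 1.86 and 1.3 FPKM in the combination, against 19.76, 10.93, 6.34 and 5.87 FPKM in controls. The log2 fold change was -1.98 ± 0.37 (SE; limma unadjusted p = 8.97e-05, adjusted p = 0.266). Postn, the matrix protein periostin of activated fibroblasts, measured 37.11, 9.29, 39.38 and 25.28 FPKM in the combination, against 189.6, 98, 62.69 and 49.61 FPKM in controls. C1qtnf3, a secreted protein of the C1q and TNF family, measured 0.89, 0.06, 1.15 and 0.82 FPKM in the combination, against 18.06, 4.86, 3.61 and 2.04 FPKM in controls. In these 3 genes all combination libraries lay below all controls, and control library 1 was the highest of the 8. Without control libraries 1 and 2 their log2 fold changes were -1.41, -1.16 and -1.16, in the order named. Fndc1, which holds fibronectin type III domains, was -1.58 against all controls and -0.67 without those 2 libraries.

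Other lower genes had narrower ranges. Ctxn1, a small membrane protein, measured 31.78, 25.25, 35.6 and 24.8 FPKM in the combination, against 42.43, 45.2, 38.6 and 40.34 FPKM in controls (log2 fold change -0.50 ± 0.12 SE). Pros1, the anticoagulant protein S and a ligand of TAM receptors, measured 16.08, 14.96, 15.32 and 17.63 FPKM in the combination, against 23.4, 26.37, 20.34 and 18.95 FPKM in controls. Tsnax, a partner of translin in RNA processing, measured 8.86, 9.78, 8.59 and 5.04 FPKM in the combination, against 13.02, 13.62, 11.63 and 11.53 FPKM in controls. For these 3 the log2 fold changes without control libraries 1 and 2 were -0.43, -0.28 and -0.51, in the order named.

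Several collagen and matrix genes were high in control libraries 1 and 2, although the list's sum was not. Over 20 genes the FPKM summed to 4376.85, 2939.6, 3744.54 and 5847.34 in the combination, against 3980.76, 4978.53, 3662.43 and 4678.34 in controls, with overlap. Col1a1, the main fibrillar collagen chain, measured 135.56, 25.15, 92.97 and 106.57 FPKM in the combination, against 381.92, 476.86, 110.82 and 106.3 FPKM in controls. Tnc, the matrix protein tenascin C, measured 8, 3.3, 13.39 and 7 FPKM in the combination, against 81.89, 52.36, 24.09 and 9.27 FPKM in controls. In both genes control libraries 1 and 2 lay far above the combination range and control library 4 within it, while control library 3 was within it for Col1a1 and above it for Tnc. Of 20 tested collagen and matrix genes 8 were lower at an unadjusted p under 0.05, against 5.19% of all genes, with a median of -0.27. In 1 of the 20 every combination library lay below every control library, against 2.37% of all genes, a count that shows nothing about the list. Without control libraries 1 and 2 the median was -0.16 and the count 1, and the count was 5 without control library 2 or combination library 2. Fbln2, a matrix glycoprotein, went the other way with narrow groups, at 241.93, 244.41, 251 and 244.93 FPKM in the combination and 208.97, 192.19, 224.77 and 230.53 FPKM in controls, a log2 fold change of 0.20 ± 0.12 (SE), or 0.11 without control libraries 1 and 2.

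Basement membrane genes encode the sheet beneath vessels and epithelia. The collagen IV chain gene Col4a1 measured 38.5, 21.78, 35.72 and 41.8 FPKM in the combination, against 66.31, 98.79, 43.93 and 44.06 FPKM in controls, without overlap (log2 fold change -0.82 ± 0.27 SE, or -0.38 without control libraries 1 and 2). Its partner Col4a2, transcribed from the same promoter region, measured 29.43 to 40.32 FPKM in the combination and 40.76 to 64.85 FPKM in controls. Nid1, which links laminin to collagen IV, overlapped at 2.37 to 4.88 FPKM in the combination and 4.83 to 29.13 FPKM in controls. Of 12 tested members 6 were lower at an unadjusted p under 0.05, against 5.19% of all genes. At that threshold 1, the laminin chain gene Lamb2, was higher, against 3.01% of all genes. Without control libraries 1 and 2, 0 were past that threshold in either direction, while the median was -0.20 and had been -0.17 with them.

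Vessel markers were high in the first 2 controls. Pecam1, a junction protein of endothelium, measured 10.65, 6.35, 8.33 and 9.91 FPKM in the combination, against 15.57, 32.81, 9.03 and 9.72 FPKM in controls (log2 fold change -0.70 ± 0.31 SE, limma adjusted p = 0.607, or -0.10 without control libraries 1 and 2). Control libraries 3 and 4 lay inside the combination range. Summed over 16 endothelial genes, the combination libraries held 94.34, 56.46, 70.4 and 90.07 FPKM, against 157.45, 305.35, 86.19 and 82.03 FPKM in controls. The list's median was -0.67. In 0 of 15 tested members did every combination library lie below every control library, against 2.37% of all genes. At an unadjusted p under 0.05, 13 were lower, against 5.19% of all genes. The count was 1 without control library 2, 3 without control library 1, 1 without combination library 2, 5 without combination library 3 and 0 without control libraries 1 and 2, when the median was -0.08. Pericyte and smooth muscle genes had a median of -0.75 with all controls and -0.13 without control libraries 1 and 2, and Acta2, smooth muscle actin, measured 6.27 to 14.37 FPKM in the combination and 9.37 to 30.9 FPKM in controls.

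Macrophage markers gave a similar account. Adgre1, the gene of F4/80, measured 3.91, 2.39, 5.36 and 8.78 FPKM in the combination, against 14.38, 18.69, 3.52 and 6.79 FPKM in controls. Lyz2, the lysozyme of myeloid cells, measured 324.63, 201.22, 230.6 and 533.58 FPKM in the combination, against 670.19, 825, 242.51 and 383.32 FPKM in controls. In both, the 2 remaining controls lay within the combination range. All 20 tested macrophage genes had a negative log2 fold change, with a median of -0.47, and 1, the scavenger receptor gene Cd163, was lower at an unadjusted p under 0.05. That is 5% of the list, against 5.19% of all genes. That count was 11 without control library 3, 3 without control library 4, 7 without combination library 4, and 0 without control library 1, control library 2, combination library 2 or combination library 3. Without control libraries 1 and 2 the median was 0.18 with 7 genes below 0, so the direction turned. Complement genes did the same, with a median of -0.52 against all controls and 0.39 without those 2 libraries. Serping1, the C1 inhibitor, measured 3.69 to 13.61 FPKM in the combination, against 107.28, 98.81, 19.82 and 7.13 FPKM in controls. The macrophage elastase gene Mmp12 did not follow, at 132.83, 168.12, 96.34 and 60.25 FPKM in the combination against 51.19, 20.77, 50.44 and 77.55 FPKM in controls (log2 fold change 1.22 ± 0.51 SE, or 0.76 without control libraries 1 and 2).

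**Figure D4:**
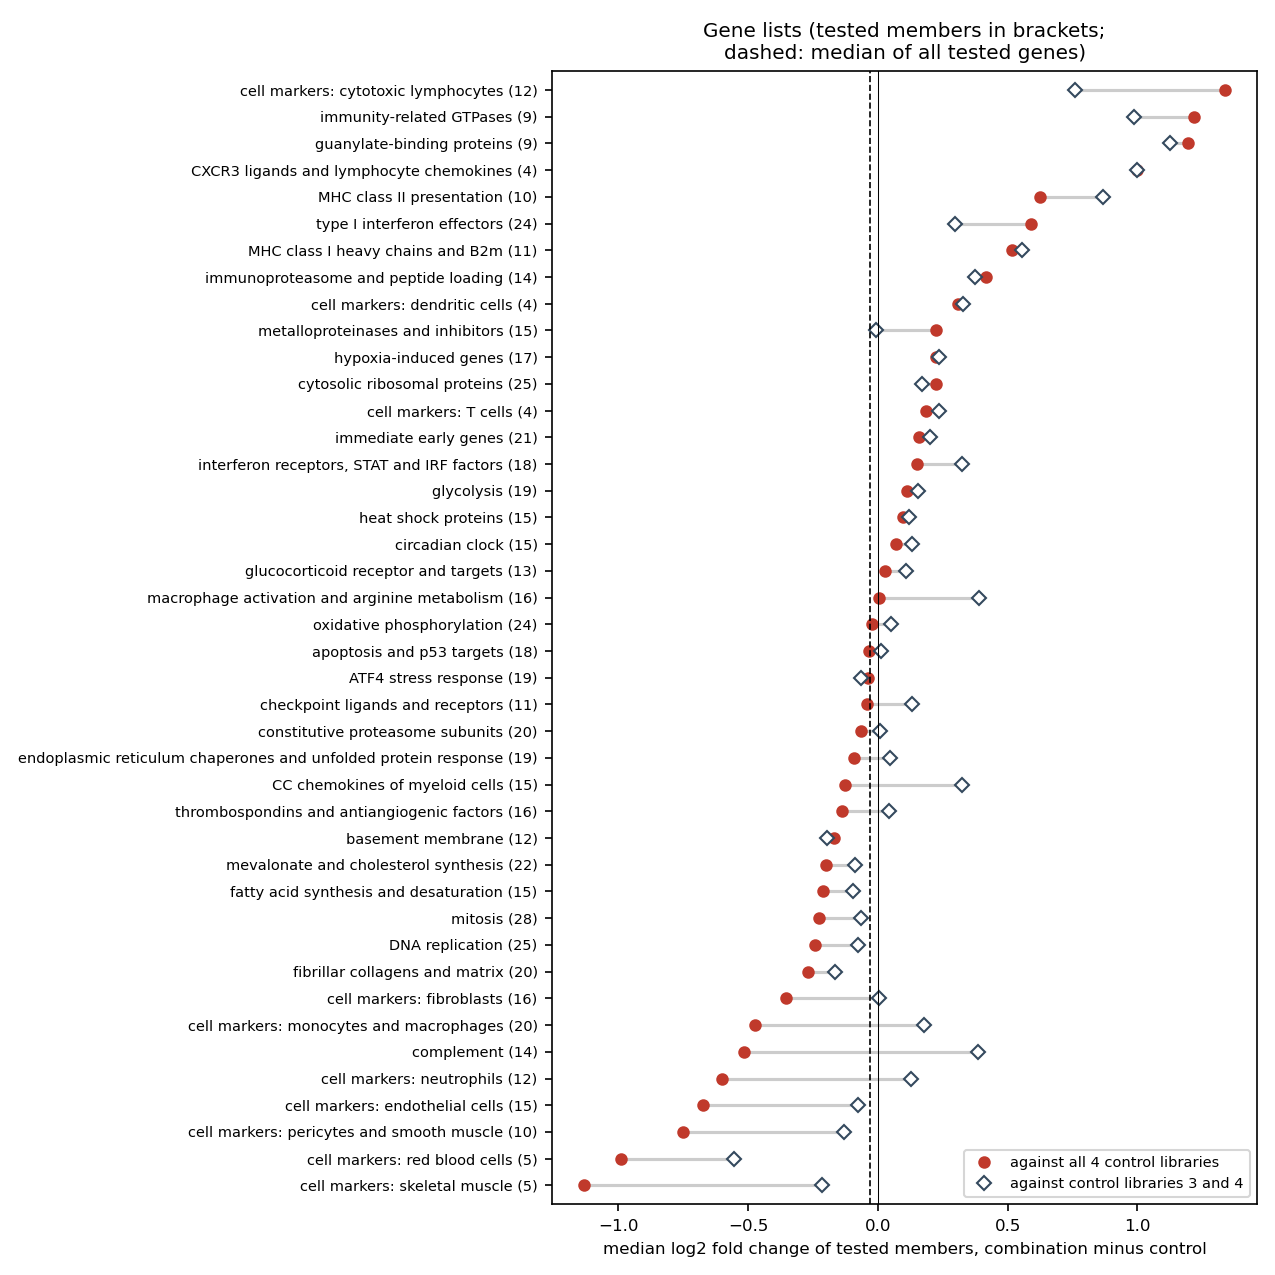
Median log2 fold change of the tested members of each gene list in combination minus control tumours. Filled circles use all 4 control libraries and open diamonds control libraries 3 and 4 only. The dashed line is the median of all genes against all 4 control libraries, for both sets of symbols. Antigen presentation and interferon lists lie right of the dashed median of all genes with either set, while macrophage and complement lists cross 0, with medians of -0.47 and 0.18 for macrophages.

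Lists of growth and metabolism differed less. Ribosomal protein genes were higher in the combination by a small step, whose size depended on the settings. Rpl5 measured 1348.78, 1348.66, 1470.9 and 1210.93 FPKM in the combination and 1170.75, 960.49, 1180.65 and 1026.42 FPKM in controls. Of 25 tested members 24 had positive log2 fold changes, with a median of 0.22, and 7 did not overlap, against 1.46% of all genes. At an unadjusted p under 0.05, 12 were higher, against 3.01% of all genes. That count was 6 without control library 1, 3 without control library 2, 8 without control library 4, 3 without combination library 2, 6 without combination library 3 and 1 without control libraries 1 and 2. Under other scalings, filters, pseudocounts, weights or fits the list's median was as low as 0.05. Among all alternatives the log2 fold change of Rpl5 was as low as 0.11. Ribosomal proteins have many processed pseudogenes, so their reads may be divided. The proliferation gene Mki67 measured 42.03, 44.56, 49.29 and 53.55 FPKM in the combination, against 64.67, 57.54, 51.89 and 42.84 FPKM in controls, with overlap. All 28 mitosis genes and all 25 DNA replication genes tested had negative log2 fold changes, with medians of -0.23 and -0.24. Without control libraries 1 and 2, 21 mitosis genes and 21 DNA replication genes were below 0. At an unadjusted p under 0.05, 1 mitosis gene (Bub1b, a spindle checkpoint kinase) and 0 DNA replication genes were lower. These are 3.57% and 0%, against 5.19% of all genes, and such counts show nothing about the lists. Without control library 4 these counts were 9 and 10, and without control libraries 1 and 2 they were 0 and 0, with medians of -0.07 and -0.08. Leaving out control library 3 gave 2 mitosis genes, and leaving out combination library 3 or 4 gave 2 and 1 DNA replication genes.

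In lipid synthesis, Elovl6, which lengthens palmitate, measured 5.76, 8.51, 9.95 and 9.65 FPKM in the combination, against 16.03, 16.78, 12.26 and 10.83 FPKM in controls. Acly, which makes cytosolic acetyl-CoA, measured 46.74 to 59.85 FPKM in the combination and 60.98 to 78.29 FPKM in controls. Elovl5, an elongase of polyunsaturated fatty acids, measured 14.64 to 18.84 FPKM in the combination and 19.45 to 21.46 FPKM in controls. In these 3 genes, of 15 tested in the fatty acid synthesis list, the groups did not overlap, against 2.37% of all genes. They were 3 of 4 fatty acid synthesis genes, of 15 tested, lower at an unadjusted p under 0.05, against 5.19% of all genes. That count was 0 without combination library 1, 1 without control library 1, 1 without control library 2, 6 without control library 4 and 1 without control libraries 1 and 2. In the mevalonate pathway 21 of 22 tested genes had a negative value, with a median of -0.20. Without control libraries 1 and 2, 15 were below 0 and the median was -0.09. Against all controls 1, Idi1, was lower at an unadjusted p under 0.05. That is 4.55% of the list, against 5.19% of all genes, and shows nothing about the list. The count was 0 to 2 when single libraries were left out. Lists of hypoxia-induced genes, glycolysis, heat shock proteins and circadian clock genes had 0 members past that threshold in either direction, with medians of 0.22, 0.11, 0.10 and 0.07. Without combination library 4 the hypoxia and glycolysis lists had 2 higher members each.

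The combination was then set beside each single treatment, since the arms share one fit. Psmb9 averaged 44.5 ± 8.30 FPKM in the combination, 63.1 ± 15.0 FPKM under anti-PD-L1 alone, 16.7 ± 4.78 FPKM under exercise alone and 18.7 ± 5.50 FPKM in controls (SD, n = 4 each). Gbp2 averaged 89.4 ± 41.5 FPKM in the combination, 125 ± 61.4 FPKM under anti-PD-L1, 32.3 ± 17.1 FPKM under exercise and 25.5 ± 8.88 FPKM in controls. Thbs2 averaged 1.92 ± 1.44 FPKM in the combination, 2.31 ± 0.91 FPKM under anti-PD-L1, 6.67 ± 1.68 FPKM under exercise and 10.7 ± 6.44 FPKM in controls. Mki67 averaged 47.4 ± 5.11 FPKM in the combination, 30.2 ± 3.56 FPKM under anti-PD-L1, 32.7 ± 21.7 FPKM under exercise and 54.2 ± 9.22 FPKM in controls. The combination and anti-PD-L1 arms both received the antibody.

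Tested directly, the combination and anti-PD-L1 alone differed in 0 of 11868 genes at an adjusted p under 0.05 (0%), with a lowest adjusted p of 0.968, and in 468 at an unadjusted p under 0.05 (3.94%). For Psmb9 this log2 difference, combination minus anti-PD-L1, was -0.49 ± 0.21 (SE), and for Tap1 -0.56 ± 0.20. The combination and exercise alone also differed in 0 genes at an adjusted p under 0.05 (0%), with 1618 at an unadjusted p under 0.05 (13.6%). The lowest adjusted p was 0.0561, for Ctxn1, which measured 24.8 to 35.6 FPKM in the combination and 48.03 to 58.48 FPKM under exercise. Psmb9 had the same adjusted p, with a log2 difference from exercise of 1.38 ± 0.21. That count of 0 depended on exercise library 1, without which 184 genes passed, and was 0 to 7 when any other single library was left out.

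**Figure D5:**
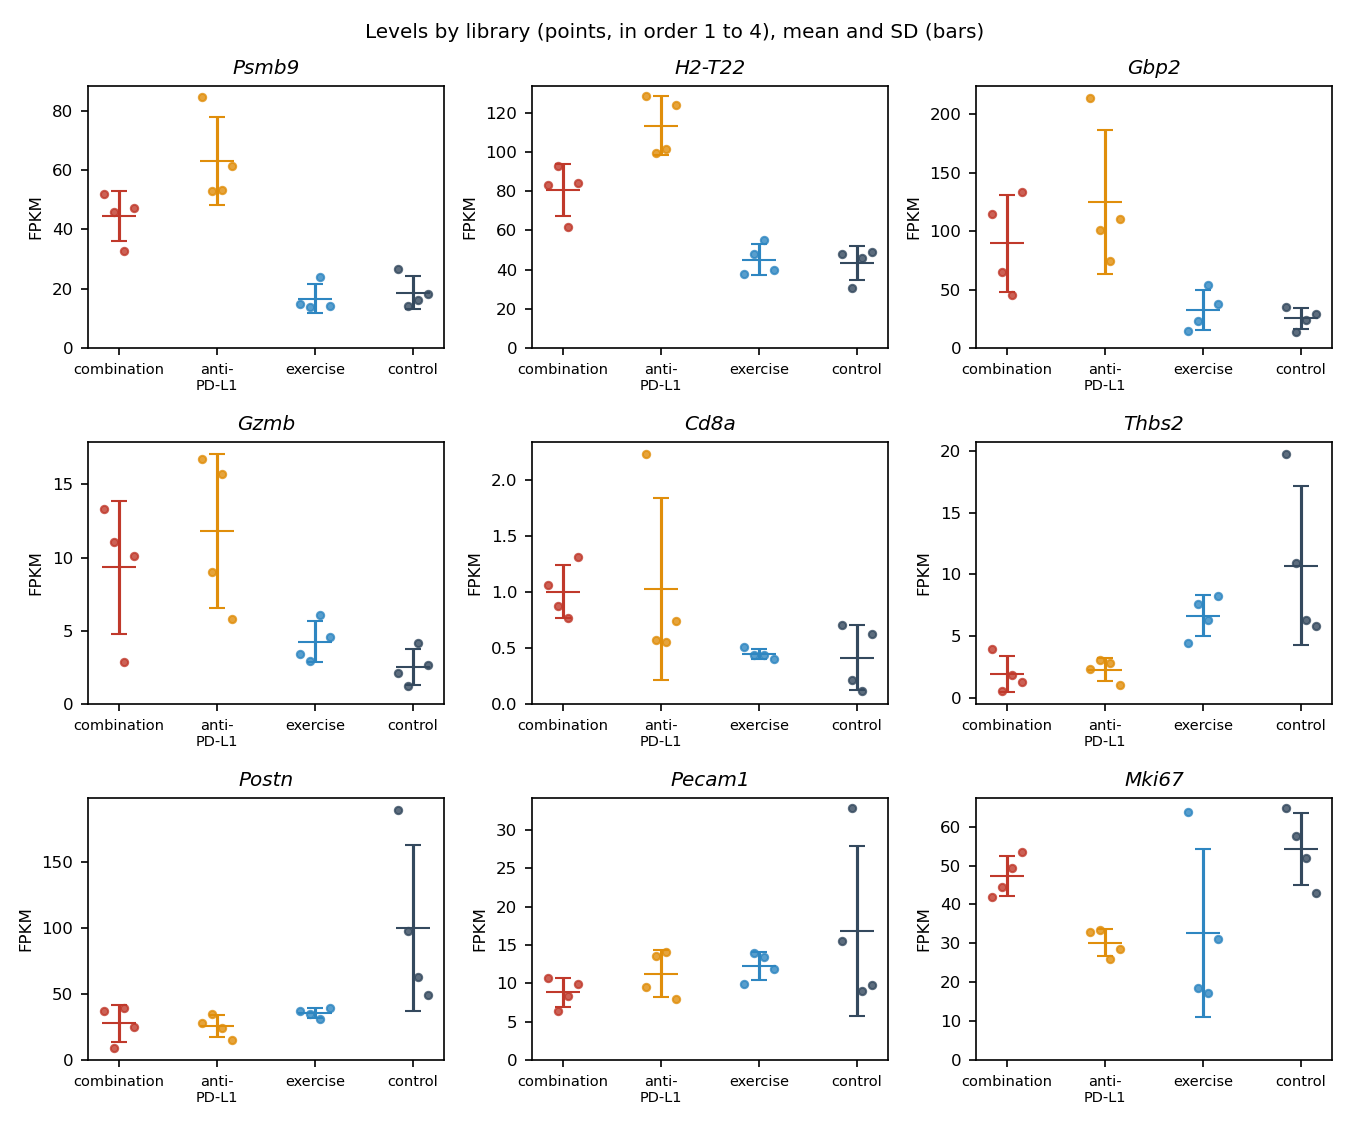
FPKM of 9 genes in each library of the 4 arms, with points for libraries and bars for the mean and SD (n = 4 each). Psmb9, H2-T22 and Gbp2 are high in the combination and under anti-PD-L1, and Thbs2 is low in both. Combination library 3 is the lowest of its arm for Gzmb, within the range of controls, and control library 2 is the highest of all 16 libraries for Pecam1.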

How the data were processed

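RNA of 16 subcutaneous MC38 tumour libraries was extracted with Trizol, per the labels. The authors deposited 1 table of FPKM per library, and the submitters' processing notes name HISAT, Bowtie2 and the build GRCm38.p6, without versions or roles. How genes were counted, and whether by strand, is not given in the sources used here. FPKM values carry no read depth, so a low value has no counting interval, and they are relative to each library's total.

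A gene was tested if 4 or more of the 16 libraries reached 1 FPKM (11868 of 18480 entries). Values were taken as log2(FPKM + 1), a pseudocount of 1, which understates the fold change of low genes. One limma fit (3.58.1, R 4.3.3) over all libraries with 4 group means, variance trend and robust settings gave two-sided contrasts, adjusted by Benjamini-Hochberg over all tested genes. The threshold was 0.05. The fit was tested on simulated data. Genes named are the 12 with the smallest p in each direction, a fixed panel, and from the lists described members with small p. Only some members against a list's median and some abundant members are named. For example, the 1 member below 0 is not named for immunoproteasome and peptide loading (log2 fold change -0.10) or cytotoxic lymphocytes (-0.33). Nor is it for type I interferon effectors (-0.04) or ribosomal proteins (-0.03), nor the 1 mevalonate member above 0 (0.07). Psmb5, Psmb6, Psmb7, Ncr1, Krt8, Krt18, Epcam and Cdh1 were added after their values were seen. One gene of the panel is not reported here. The members and lists were chosen with earlier results of these data known, so no list carries a p of its own. Alternatives were other scalings, filters, pseudocounts, weights, fewer groups, a replicate block and left-out libraries. Promoter windows and gene positions are from RefSeq, and 17960 entries matched a RefSeq symbol. Not every gene of each list was in the tables used here.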

Additional observations from a re-analysis of the deposited data

Results flagged for a closer look

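In 326 groups of 4 libraries examined (named genes and summed lists, in the combination and in controls), 11 had 1 library far from the other 3, where chance flags about 1 in 20 groups, or 16.3 of these. The flags are therefore fewer than chance gives, and are listed as values only. In the combination, Tnfrsf14 was at 8.91 FPKM in library 4, against 6.89 to 7.12 FPKM in the others, and Lum, the matrix proteoglycan lumican, was at 0.12 FPKM in library 2, against 2.63 to 2.94 FPKM.

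Control library 2 was the low one for 5 interferon-induced genes. Tap2 was at 11.95 FPKM there, against 19.28 to 20.29 FPKM in the other controls, and H2-T22 at 30.79 FPKM, against 45.74 to 48.84 FPKM. Gbp6 was at 1.73 FPKM, against 4.61 to 5.36 FPKM, Igtp at 5.42 FPKM, against 13.57 to 15.08 FPKM, and Tgtp2 at 3.69 FPKM, against 12.62 to 12.69 FPKM. Without that library the median log2 fold change was 0.99 for immunity-related GTPases, against 1.22 with it. For guanylate-binding proteins it was 1.08, against 1.20. The GTPase count at an unadjusted p under 0.05 fell from 6 to 1 of 9, as given above. Control library 2 is also the one with the muscle transcripts, and whether these bear on the low values was not tested.

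In control library 4, Idi1 was at 4.22 FPKM, against 9.22 to 9.6 FPKM in the others, and the summed DNA replication genes were at 981.15 FPKM, against 1414.78 to 1507.31 FPKM. In control library 1, Cd3e, a chain of the T-cell receptor complex, was at 0.6 FPKM, against 0.07 to 0.14 FPKM. In control library 3, glucocorticoid receptor targets summed to 2109.89 FPKM, against 2805.78 to 2929.83 FPKM in the others.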

How the results depend on the processing

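No gene passed an adjusted p of 0.05 in the combination against control under the main settings or any of 27 alternatives, and the count for the combination against anti-PD-L1 was also 0 in all of them. For the combination against control, the number at an unadjusted p under 0.05 was 973 and became 1622 with no filter on low values, which tests more genes, 1792 with library weights and 291 without control libraries 1 and 2. Leaving out 1 library at a time gave 486 to 1593. For the combination against exercise, where 0 passed, the adjusted count was 2 after quantile normalization, 2 after centring libraries on their medians, 2 among genes with a mean of at least 5 FPKM, 1 in a fit of the 2 groups compared, 222 with library weights and 5 without control libraries 1 and 2. Leaving out 1 library at a time gave 0 to 184. The causes of the shifts were not tested.

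Same-numbered libraries did not deviate together, with correlations of -0.28 to 0.04 between the deviations of combination and control libraries of a number. So few pairs cannot exclude that libraries of a number share something, and the other arms were not compared in this way. With replicate block the unadjusted count was 899 and the adjusted counts of all 3 comparisons were 0.

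Of 103 named genes with a fold change, none passed an adjusted p of 0.05 under any alternative, and 3 turned in sign. Without control libraries 1 and 2, the log2 fold change was 0.30 for H2-Q7, 0.65 for H2-DMb2 and 0.0001 for Mki67, and without control library 2 alone H2-DMb2 was at 0.16 (over single left-out libraries -0.56 to 0.16). Of 44 list medians, 16 changed sign under at least 1 alternative. FPKM give no read depth, so precision rests on 4 libraries a group and on a spread shared by all 16, the single-treatment arms included. A gene's standard error is therefore the same in every comparison of the main fit, 0.21 for Psmb9. It does not follow a wider spread among controls alone.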
